A study of Mus musculus with 13 samples.

Results

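Fatty acid uptake and mitochondrial beta-oxidation were followed through 32 genes in the aorta of mice. The genes were taken by symbol from the deposited expression table. All 32 were found among the 28510 genes with values, and all 32 passed the filter on low values, at least 1 FPKM in at least 2 libraries, which kept 13748 genes. Gene positions are those of the deposited table, taken as GRCm39, which is 1 of the builds in the submitters' notes; Hadhb, for example, starts at 30360246 there and at 30155253 in GRCm38.p6. FPKM are fragments scaled to transcript length and to library size, so levels of different genes are compared here per length. Values in the text are FPKM scaled between libraries.

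Vehicle mice drank plain water (4 libraries), fasudil mice received 150 mg/kg/day of fasudil in it (3 libraries), and BAPN mice drank water with 0.25% β-aminopropionitrile (2 usable libraries). A combined group (3 libraries) drank BAPN alone for 1 week and then the same doses of both agents. BAPN inhibits lysyl oxidases, whose crosslinks hold collagen and elastin fibres together, fasudil is a kinase inhibitor, and the submitters describe the combination as their way to induce aortic dissection. The arms held 11 vehicle, 10 fasudil and 12 BAPN mice, kept 1 week to acclimatise and 4 weeks in the experiment. The labels used here state no strain, age, sex or genotype, nor whether a library is 1 animal or a pool, so p-values measure the spread between libraries, which may be partly technical. The titles number the BAPN libraries in their last place and all other libraries in their first, while the descriptions number all alike, so whether the BAPN libraries are repeats of 1 sample is not settled and their n counts libraries. All 4 groups shared a single bulk tissue label, mouse aorta, with no cell type sorted.

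Fatty acids reach a cell after lipoprotein lipase frees them from circulating triglyceride, cross the membrane with the help of CD36 and fatty acid transport proteins, and are carried by binding proteins. Acyl-CoA synthetases activate them, the carnitine shuttle brings long chains into the mitochondrion, and repeated rounds of dehydrogenation, hydration, a further oxidation and thiolysis shorten them. Brown fat, which lies around the thoracic aorta of mice, burns fatty acids in this way to make heat, while white fat stores and releases them.

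Promoter windows of 250 bases before to 50 after each start were available from RefSeq (build GRCm38.p6) for 26 of the 32 genes, 32 windows in all. Lpl, Fabp4, Acot13, Cpt1b, Decr1 and Acaa2 are named here without a window. Hadha and Hadhb, which encode the subunits of the mitochondrial trifunctional protein, start head to head on chromosome 5, at 30154980 on the minus strand and 30155253 on the plus strand, with 272 bases between them. The deposited table places these starts closer together, Hadha at 30360160 and Hadhb at 30360246. By its positions, part of the bases between the RefSeq starts falls inside Hadha. The 250 bases before the RefSeq start of Hadhb are chr5:30155003-30155252 on the plus strand. They are shown because they lie between both RefSeq starts and because the ratio of these genes is among the results. They have a GC content of 58.8% and hold none of the motifs searched.
Hadhb upstream: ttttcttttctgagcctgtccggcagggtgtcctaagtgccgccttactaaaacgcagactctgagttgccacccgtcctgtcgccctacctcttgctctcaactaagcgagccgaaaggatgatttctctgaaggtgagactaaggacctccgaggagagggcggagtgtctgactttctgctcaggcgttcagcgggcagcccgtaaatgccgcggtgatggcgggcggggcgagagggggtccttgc

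The motifs were searched on both strands. The oestrogen-related receptor element TCAAGGTCA was in 0 of the 32 windows and in 0.423% of all 32851 promoter windows. The DR1 element, the kind of site bound by PPAR and RXR, is the half-site AGGTCA repeated in the same direction after 1 base of any kind, and it was in 0 windows without mismatch (0.0396% of all). With up to 2 mismatches it was in 3 windows, 9.38% against 3.86% of all, in Cd36, Echs1 and Etfa. The half-site on its own, which is part of both elements, was in 7 windows (21.9% against 16.3% of all) and the CCAAT box (the letters CCAAT) in 15 (46.9% against 37.4%). The NRF1 consensus, a near-palindrome, was in 1 window, 3.12% against 1.27% of all, that of Acad10. A shorter form, its inner bases with T at the variable one, was in 3 windows, 9.38% against 0.971% of all, in Acad10, Etfdh and Ppara, and the longer form is the one shown, a choice made after both had been seen. The members' windows had a median GC content of 60.6% against 52.4% of all windows, and a median of 12.5 CpG dinucleotides against 6, so a GC-rich motif meets more such letters there. These matches are descriptions of letters and do not show binding. The DR1 matches of Cd36, Echs1 and Etfa and the NRF1 match of Acad10 are shown in capitals, with 20 bases on each side, on the strand of the gene.
Cd36, chr5:17835927-17835979, minus strand, match at -63 to -51: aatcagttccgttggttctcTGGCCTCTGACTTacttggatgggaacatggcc
Echs1, chr7:140116472-140116524, minus strand, match at -83 to -71: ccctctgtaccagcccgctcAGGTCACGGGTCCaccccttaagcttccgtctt
Etfa, chr9:55512288-55512340, minus strand, match at -77 to -65: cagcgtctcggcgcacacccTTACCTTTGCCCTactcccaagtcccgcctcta
Acad10, chr5:121660524-121660575, minus strand, match at -45 to -34: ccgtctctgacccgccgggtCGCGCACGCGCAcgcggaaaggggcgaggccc

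In vehicle aorta the 32 genes were abundant. Their summed FPKM made up 1.94% to 2.33% of each vehicle library, of which Fabp4 alone gave 0.766% to 0.917%. Mean vehicle levels ran from 8222 ± 1777 (SD, n = 4) for Fabp4 and 1445 ± 346 (SD, n = 4) for Hadhb down to 16.2 ± 3.02 (SD, n = 4) for Acad10 and 9.86 ± 3.03 (SD, n = 4) for Cpt1a. Between these ends the order is loose. The 6 genes from Etfb (996) through Hadha, Acadm, Acadvl and Acadl to Acaa2 (802) lay closer together than the SD of most of them (169.6 to 262). The 4 vehicle libraries did not agree on one level: replicates 1 and 4 were both above replicates 2 and 3 for 28 of the 32 genes, and for 22 with the FPKM left unscaled.

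The libraries had an estimated depth of 20.4 to 20.9 M reads. At that depth the estimates for the members ran from 207 reads (lowest, Ppara) to 861414 reads (highest, Fabp4) per library. These read numbers treat a gene as if only its longest annotated form were present, 3413 bases for Ppara and 4231 for Fabp4. They are therefore upper estimates, too high wherever shorter forms were present. Markers of the labelled tissue's defining cells were found in every library but were uneven within groups. The 10 contractile smooth muscle markers summed to 2066 to 6032 FPKM with vehicle, lowest in replicate 4. They summed to 937, 613 and 5641 in fasudil replicates 1, 2 and 3. The sums were 2510 to 5573 with BAPN and 1919 to 10853 with the combination. BAPN replicate 1 stood apart, since immunoglobulin genes made up 10.5% of its FPKM and at most 0.0456% in any other library. Airway epithelium markers summed to 13645 FPKM in vehicle replicate 3 and at most 230 elsewhere. Sympathetic nerve markers summed to 464 to 1077 in fasudil replicates 2 and 3, BAPN replicate 1 and combined replicate 1, 83.0 in combined replicate 3 and at most 31.4 elsewhere. Skeletal muscle markers summed to 544 in fasudil replicate 1, 263 in combined replicate 3 and at most 159 elsewhere. Cardiomyocyte markers summed to 220 in fasudil replicate 1, 261 in BAPN replicate 1 and at most 93.9 elsewhere. Results that use the BAPN group are therefore given with its 2 libraries side by side.

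**Figure D1:**
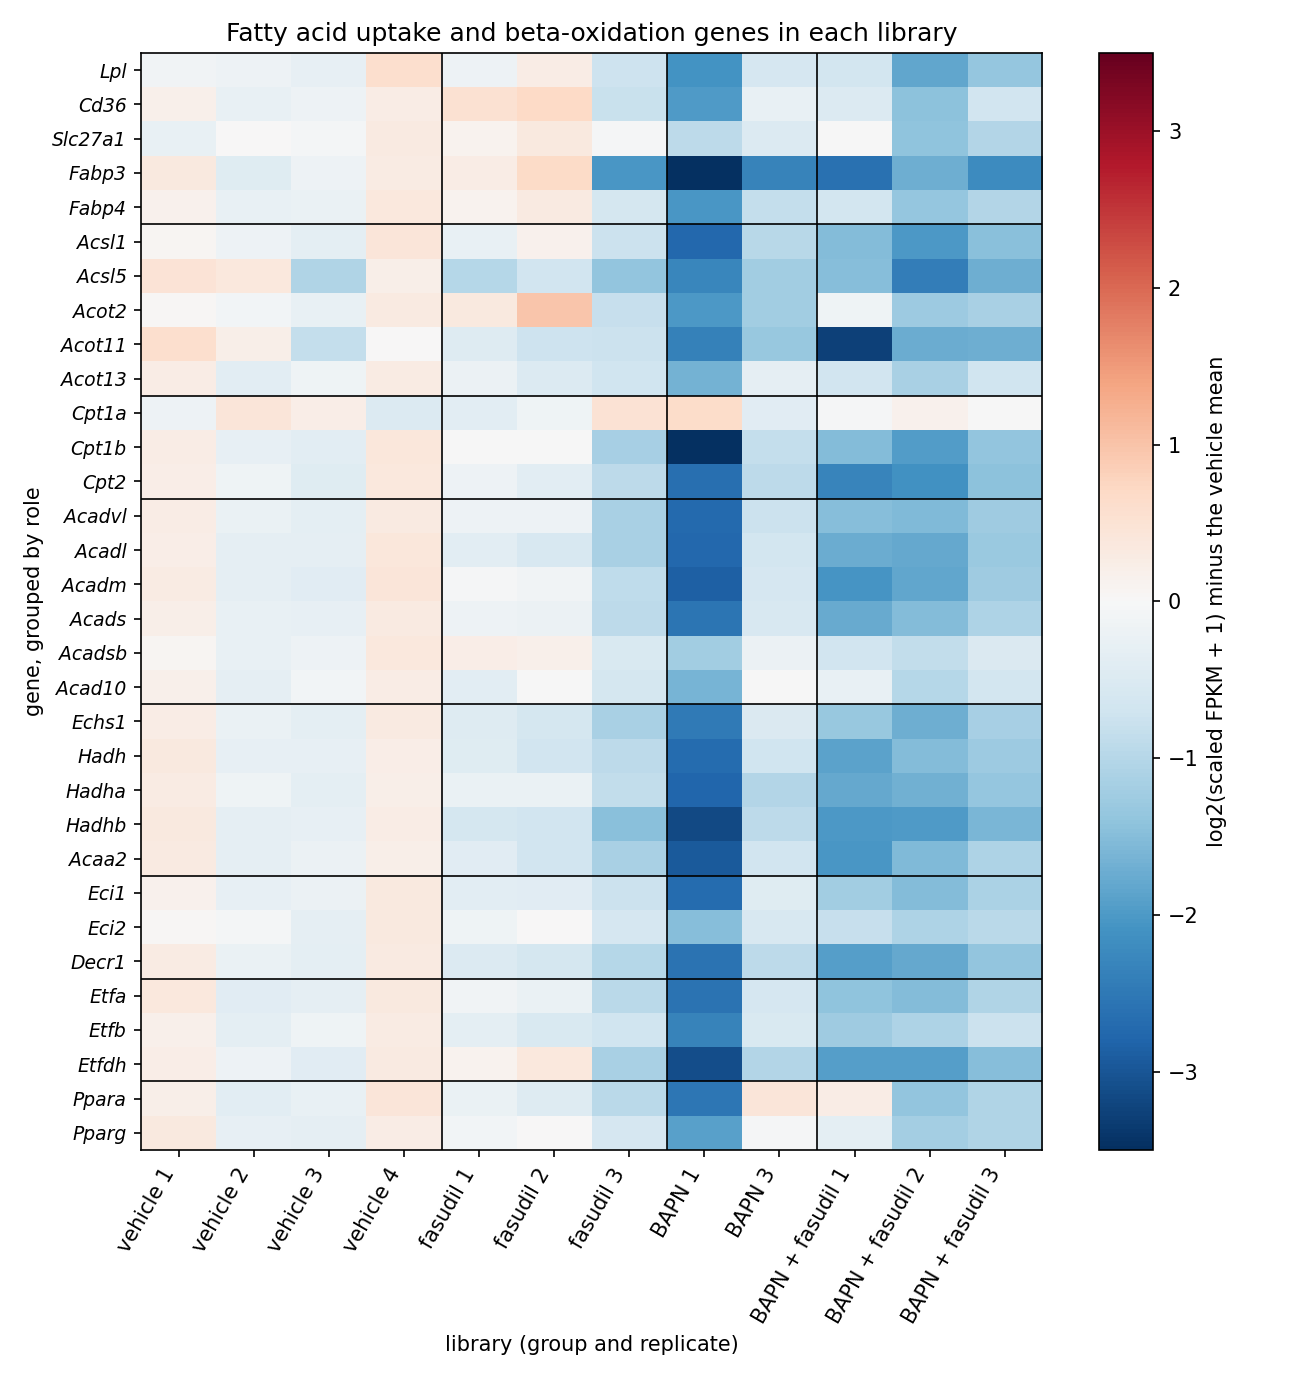
Heat map of the 32 genes (rows, grouped by role) in the 12 libraries (columns), coloured by log2(scaled FPKM + 1) minus the mean of the vehicle libraries. BAPN replicate 1 is the darkest blue column, the 3 combined libraries are blue for nearly all genes, and the row of Cpt1a departs from the others.

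With BAPN and fasudil together, 3 genes fell against vehicle: Acot11, a long-chain acyl-CoA thioesterase abundant in brown fat, Cpt2, the carnitine acyltransferase of the inner mitochondrial membrane, and Decr1, the reductase that lets polyunsaturated chains pass through beta-oxidation. No gene of the 32 rose, where 0.662% of all genes did. The log2 fold change (log2FC) was below 0 for 31 of 32, with a median of -1.41 beside 0.06 over all genes tested. A call required a Benjamini-Hochberg adjusted p under 0.05 in limma's moderated test over all 13748 genes, which called 1.68% of genes in this comparison and 1.02% lower. An unadjusted p under 0.05 with a lower level was found for 26 of the 32, against 14.4% of all genes, and 20 had an adjusted p under 0.1 with a lower level, against 8.19%. Every combined library lay below every vehicle library for 27 of the 32, against 16.6% of all genes, and for 25 without scaling. The 5 genes whose groups overlapped were Cpt1a, Acad10, Acot2, Slc27a1 and Ppara.

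The 3 calls stood close to the threshold and depended on which libraries shared the fit. Left out one at a time, 8 of the 12 libraries brought the number called to 0 (vehicle replicates 1, 2 and 4, fasudil replicates 1 and 2, and each combined library), in fits that called 0% to 0.219% of all genes lower, and vehicle replicate 3 brought it to 1 (0.3% of all genes). Without fasudil replicate 3 the number was 5 (1.83% of all genes). It was 24 without BAPN replicate 1 (8.72%) and 24 without BAPN replicate 3 (8.22%), so calls over the whole table rose as well. The direction was steadier than the calls, with 31 of the 32 lower in every alternative fit that was run. This count adds little, since leaving out 1 library could hardly change the direction of the 27 genes without overlap.

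**Figure D2:**
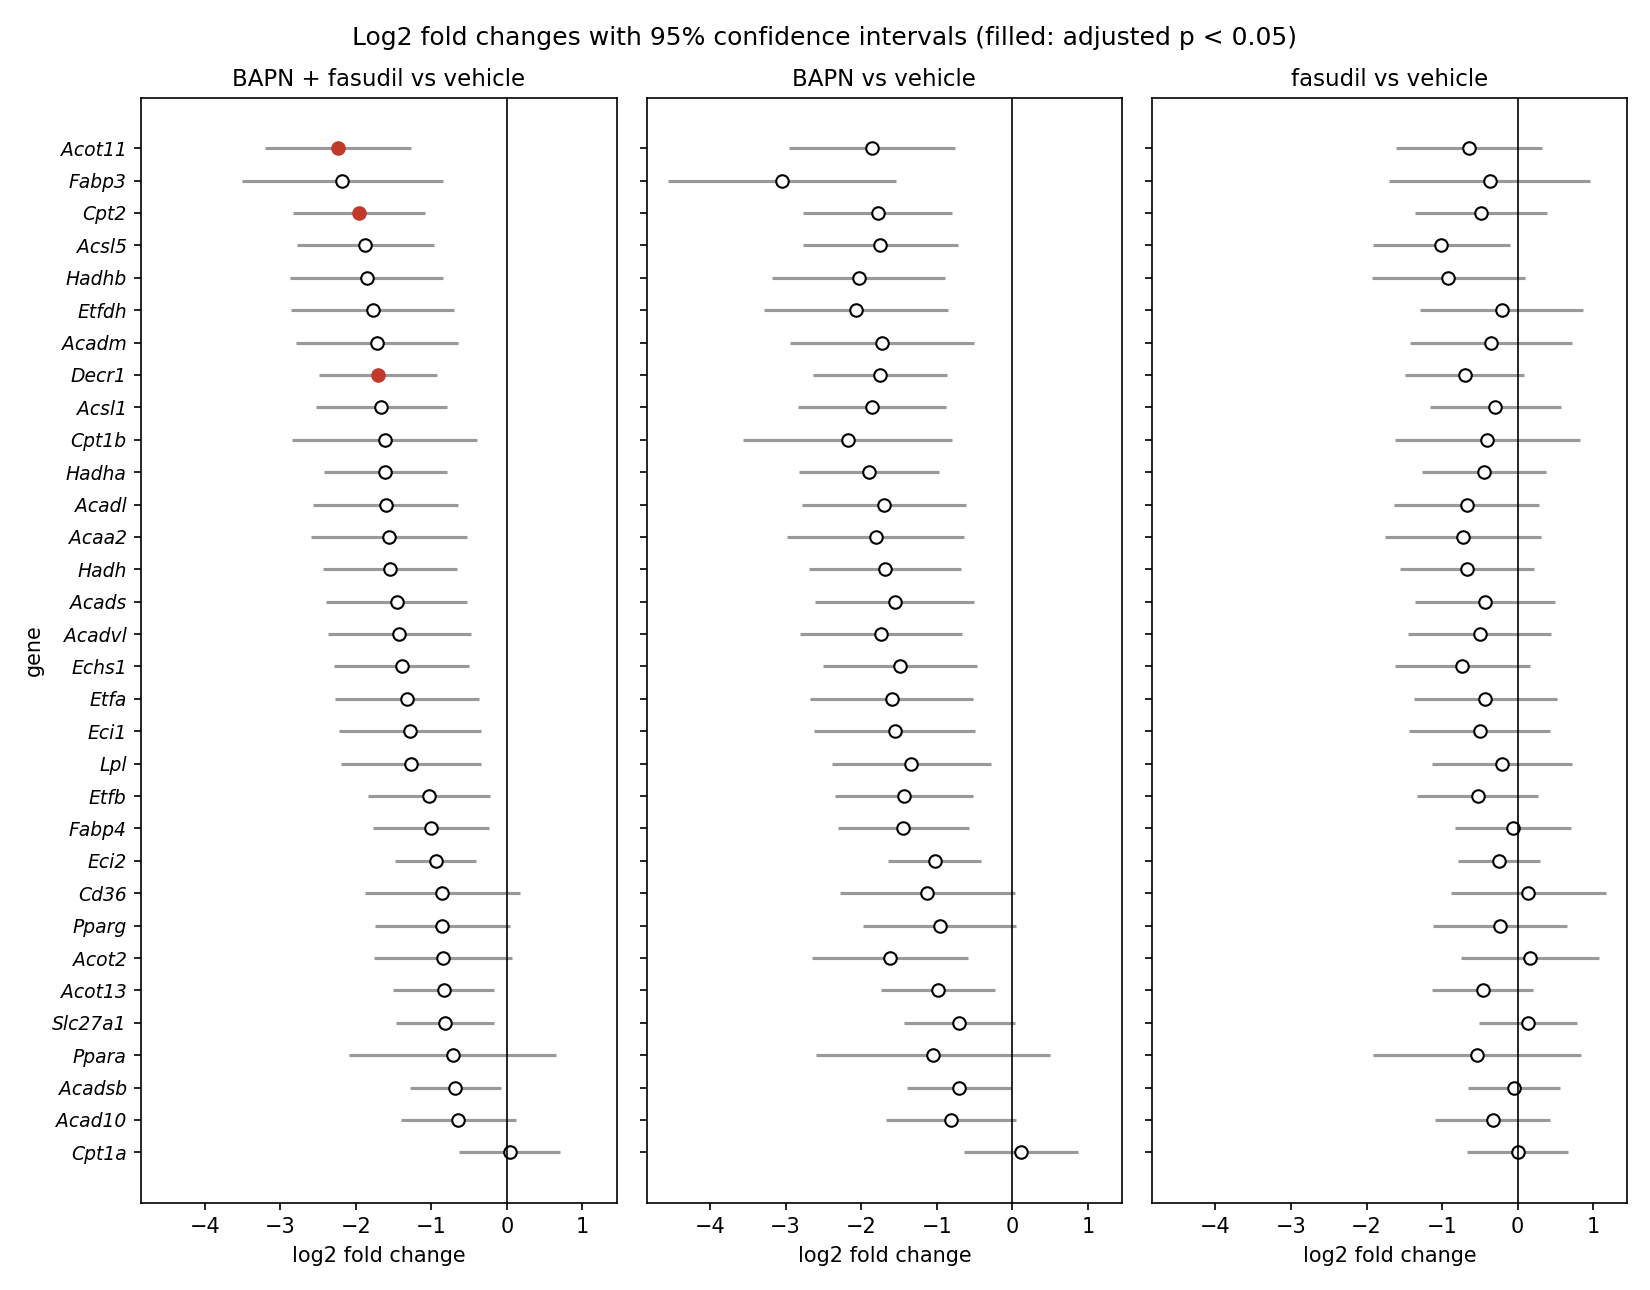
Log2 fold changes of the 32 genes with 95% confidence intervals in 3 comparisons with vehicle, ordered by the first. With the combination the intervals of 26 genes lie below 0 and 3 genes pass the adjusted threshold (filled), with BAPN the intervals of 26 lie below 0 and none passes, and with fasudil the interval of 1 gene lies below 0.

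The genes of uptake and binding were lower with the combination without passing the test. Lpl (ENSMUSG00000015568.17, chr8:69333143-69360100), whose lipase frees fatty acids from lipoproteins, measured 680.3, 663, 606 and 1129.7 with vehicle, 665, 895 and 453 with fasudil, 173 and 499.7 with BAPN and 474, 209 and 293 with BAPN and fasudil. Vehicle replicate 4 was well above the other vehicle libraries, and all 3 combined libraries were below all 4 of vehicle. The log2FC with the combination was -1.27 ± 0.42 (SE; adjusted p = 0.0934) by limma.

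Cd36, the fatty acid translocase, measured 502, 372, 396 and 539 with vehicle, 644, 722 and 258 with fasudil, 111 and 374 with BAPN and 322, 164 and 283 with BAPN and fasudil. Both fasudil replicates 1 and 2 exceeded every vehicle library, fasudil replicate 3 was below them all, and the combined libraries were all below vehicle. Its log2FC was -0.86 ± 0.46 (SE; adjusted p = 0.265) with the combination and 0.14 ± 0.46 (SE; adjusted p = 0.957) with fasudil in limma's test. Slc27a1, a fatty acid transport protein, measured 109, 133, 126 and 164 with vehicle, 142, 167 and 127 with fasudil, 69.6 and 93.3 with BAPN and 129, 48.6 and 64.6 with BAPN and fasudil. Combined replicate 1 lay within the vehicle range, while the other two were below every other library. The log2FC of Slc27a1 was -0.82 ± 0.29 (SE; adjusted p = 0.116) by limma.

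The fatty acid binding proteins differed in size of change. Fabp3, the form typical of heart and muscle, measured 528, 313, 369 and 509.7 with vehicle, 507, 664 and 101 with fasudil, 29.9 and 82.8 with BAPN and 67.2, 127 and 90.0 with BAPN and fasudil. Fasudil replicate 3 sat with the BAPN and combined libraries, far below fasudil replicates 1 and 2. Vehicle averaged 429.7 ± 106 (SD, n = 4) and the combined group 94.8 ± 30.2 (SD, n = 3). Limma gave Fabp3 a log2FC of -2.18 ± 0.60 (SE; adjusted p = 0.0665). Fabp4, the adipocyte form and the most abundant member in vehicle, measured 8955, 6719, 6820.5 and 10392 with vehicle, 8776, 9980.4 and 5323 with fasudil, 1954 and 4535 with BAPN and 5191, 3192 and 3971 with BAPN and fasudil. Every combined library was below every vehicle library, though combined replicate 1 came close to fasudil replicate 3. Its log2FC was -1.0 ± 0.35 (SE; adjusted p = 0.105) by limma, nearer to 0 than that of Fabp3.

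Activation and its reversal held the largest call. Acsl1, the acyl-CoA synthetase that supplies beta-oxidation in fat and heart, measured 619.7, 524, 462 and 792 with vehicle, 487, 646 and 348 with fasudil, 86.8 and 297 with BAPN and 204, 144 and 212 with BAPN and fasudil. The combined libraries lay under all vehicle and fasudil libraries. Its log2FC was -1.67 ± 0.39 (SE; adjusted p = 0.0516) by limma. Acsl5, another long-chain synthetase, measured 129.7, 122, 44.4 and 108 with vehicle, 46.5, 58.0 and 35.4 with fasudil, 18.4 and 39.6 with BAPN and 32.3, 16.5 and 28.1 with BAPN and fasudil. Vehicle replicate 3 was far below the other vehicle libraries and within the range of fasudil, yet above each combined library. The log2FC was -1.88 ± 0.41 (SE; adjusted p = 0.05), and limma did not call it.

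Acot11 (ENSMUSG00000034853.17, chr4:106601752-106662195, minus strand) measured 55.9, 43.0, 20.3 and 37.3 with vehicle, 26.6, 22.0 and 21.3 with fasudil, 6.29 and 14.0 with BAPN and 2.96, 10.4 and 10.5 with BAPN and fasudil. The combined and vehicle libraries did not overlap, and combined replicate 1 was the lowest of all libraries. Acot11 fell from 39.1 ± 14.8 (SD, n = 4) to 7.96 ± 4.33 (SD, n = 3), a log2FC of -2.23 ± 0.44 (SE; adjusted p = 0.0434) by limma. Without combined replicate 1 the log2FC was -1.72, and the largest adjusted p with 1 library left out was 0.144. Acot2, a thioesterase of the mitochondrial matrix, measured 27.3, 25.1, 22.3 and 33.2 with vehicle, 34.1, 53.5 and 14.8 with fasudil, 5.81 and 11.0 with BAPN and 23.9, 10.4 and 11.7 with BAPN and fasudil. Fasudil replicates 1 and 2 exceeded all vehicle libraries and combined replicate 1 lay within vehicle, so the groups overlapped. The log2FC of Acot2 was -0.85 ± 0.41 (SE; adjusted p = 0.217) with the combination and -1.62 ± 0.47 (SE; adjusted p = 0.11) with BAPN by limma. Acot13, the remaining thioesterase, had a log2FC of -0.83 with the combination.

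The carnitine shuttle held both a gene that fell and the 1 gene of the 32 with no decrease. Cpt1a, the liver-type outer membrane transferase, measured 8.26, 13.3, 11.4 and 6.54 with vehicle, 7.17, 8.51 and 14.0 with fasudil, 15.3 and 6.97 with BAPN and 9.16, 10.8 and 9.53 with BAPN and fasudil. All groups overlapped, and the highest value of any library was in BAPN replicate 1. Its log2FC was 0.04 ± 0.30 (SE; adjusted p = 0.95) with the combination by limma, with a 95% confidence interval from -0.63 to 0.70. The value was below 0 without vehicle replicate 1, vehicle replicate 4 or combined replicate 2 and with the replicate number as a block, and ran from -0.13 to 0.38 across the alternatives.

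Cpt1b, the muscle-type form, which brown fat also uses, measured 409.5, 278, 265 and 447 with vehicle, 336, 336 and 151 with fasudil, 28.4 and 192 with BAPN and 119, 87.1 and 130.0 with BAPN and fasudil. The 3 combined libraries were below all vehicle and fasudil libraries, and BAPN replicate 1 was far below BAPN replicate 3. Its log2FC was -1.62 ± 0.55 (SE; adjusted p = 0.103) with the combination and -2.18 ± 0.63 (SE; adjusted p = 0.109) with BAPN, neither called by limma. Cpt2 (ENSMUSG00000028607.17, chr4:107761178-107780807, minus strand) measured 217, 166, 137 and 238 with vehicle, 164, 144 and 98.2 with fasudil, 29.0 and 96.8 with BAPN and 36.3, 42.2 and 67.6 with BAPN and fasudil. Vehicle and combined libraries did not overlap, and BAPN replicate 3 lay between them. Cpt2 fell from 189.7 ± 46.6 (SD, n = 4) to 48.7 ± 16.6 (SD, n = 3), a log2FC of -1.96 ± 0.39 (SE; adjusted p = 0.0438) by limma. With 1 library left out its adjusted p rose to at most 0.149.

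**Figure D3:**
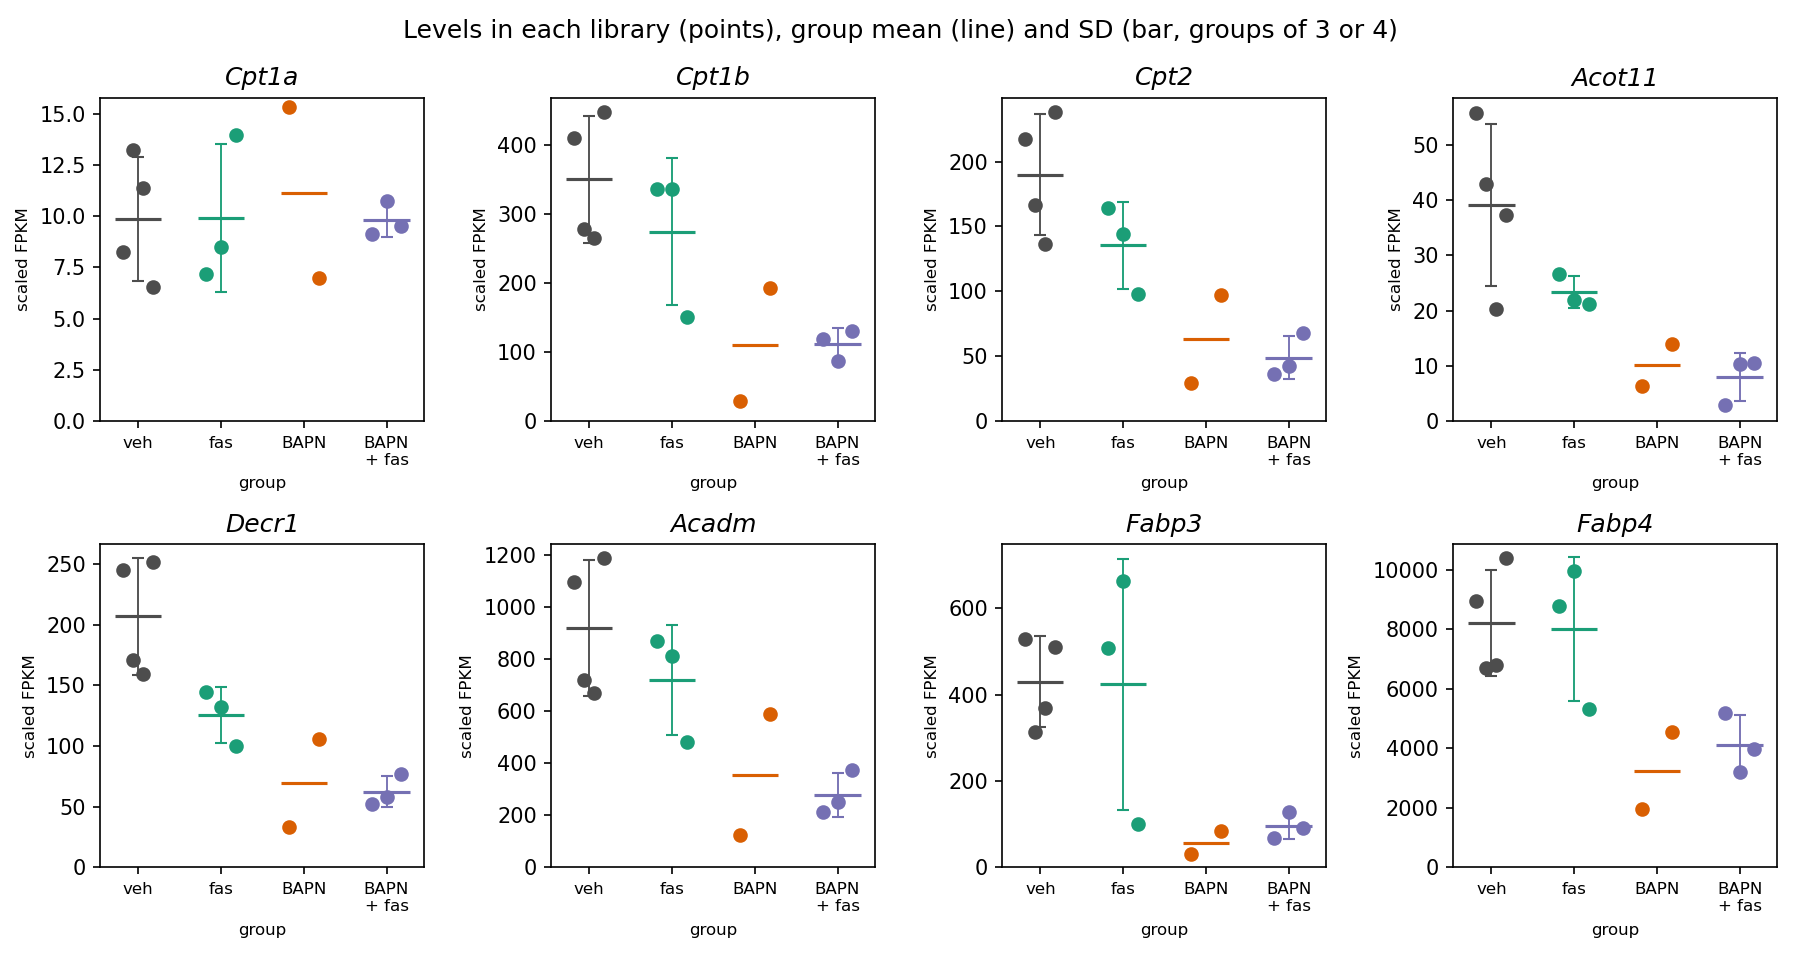
Scaled FPKM (linear axes from 0) of 8 genes in each library by group (veh, vehicle; fas, fasudil), with group means as lines and SD as bars for the groups of 3 or 4 libraries. Cpt1a lies at about the same level in every group, while Cpt2, Acot11 and Decr1 lie lower in every combined library than in every vehicle library.

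The acyl-CoA dehydrogenases take the first step of each round and differ in the chain lengths they accept. Acadvl, for very long chains, measured 1009, 717, 659.6 and 1053 with vehicle, 741, 743 and 383 with fasudil, 127 and 502 with BAPN and 299.7, 286 and 357 with BAPN and fasudil. Acadl, for long chains, measured 959, 659, 649.9 and 1064 with vehicle, 635, 556 and 373 with fasudil, 120.3 and 516 with BAPN and 246, 235 and 328 with BAPN and fasudil. Acadm, for medium chains, measured 1097, 720.2, 672 and 1189 with vehicle, 869.7, 811 and 480.1 with fasudil, 122 and 589 with BAPN and 211, 250.2 and 375 with BAPN and fasudil. In all 3 genes the combined libraries were below every vehicle and every fasudil library, and BAPN replicate 1 was the lowest library. The log2FC with the combination was -1.43 ± 0.43 (SE; adjusted p = 0.0778) for Acadvl, -1.61 ± 0.43 (SE; adjusted p = 0.0634) for Acadl and -1.72 ± 0.48 (SE; adjusted p = 0.0687) for Acadm in limma's fit, with none called. Acads, for short chains, had a log2FC of -1.46, Acadsb, for short and branched chains, -0.68, and Acad10 -0.64. Of these 6 genes, Acad10 was the 1 whose combined and vehicle libraries overlapped. Over all genes, 16.6% had every combined library below every vehicle library, and 11.6% had every combined library below every fasudil library.

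Hydration, the later oxidation and thiolysis are carried out for long chains by the trifunctional protein. Hadha (ENSMUSG00000025745.13, chr5:30323302-30360160, minus strand), its alpha subunit, measured 1124, 822, 718 and 1066 with vehicle, 780.4, 786 and 501 with fasudil, 134 and 449 with BAPN and 264, 287 and 357 with BAPN and fasudil. Hadhb (ENSMUSG00000059447.14, chr5:30360246-30389591, plus strand), its beta subunit, measured 1798, 1132, 1164 and 1685 with vehicle, 915, 894 and 513 with fasudil, 159 and 748 with BAPN and 353, 357 and 468 with BAPN and fasudil. The combined libraries were below vehicle for both, and for Hadhb the 3 fasudil libraries were below vehicle too. The log2FC with the combination was -1.61 ± 0.37 (SE; adjusted p = 0.0511) for Hadha and -1.86 ± 0.46 (SE; adjusted p = 0.0555) for Hadhb by limma. With fasudil it was -0.44 ± 0.37 (SE; adjusted p = 0.774) and -0.92 ± 0.46 (SE; adjusted p = 0.624). Echs1, Hadh and Acaa2, which serve shorter chains at these steps, had log2FC of -1.40, -1.55 and -1.56 with the combination. For all 5 genes of these steps every combined library was below every vehicle library, against 16.6% of all genes.

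Unsaturated fatty acids need auxiliary enzymes. Decr1 (ENSMUSG00000028223.9, chr4:15917240-15945507, minus strand) measured 245, 171, 159.6 and 252 with vehicle, 144, 132 and 100.2 with fasudil, 32.9 and 106 with BAPN and 52.0, 58.3 and 76.9 with BAPN and fasudil. The fasudil libraries were all below vehicle and all above the combined libraries. Decr1 fell from 207 ± 48.5 (SD, n = 4) to 62.4 ± 12.9 (SD, n = 3), a log2FC of -1.70 ± 0.35 (SE; adjusted p = 0.0459) by limma. With 1 library left out its adjusted p rose to at most 0.154. The isomerases Eci1 and Eci2 had log2FC of -1.28 and -0.95, without a call. Their combined libraries were all below vehicle, as in 16.6% of all genes.

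Electrons from the dehydrogenases pass through the flavoprotein of Etfa and Etfb to the ubiquinone oxidoreductase of Etfdh. Etfdh measured 275, 207, 177 and 291 with vehicle, 256, 301 and 105 with fasudil, 26.0 and 114 with BAPN and 60.9, 60.7 and 81.8 with BAPN and fasudil. Fasudil replicate 1 was within the range of vehicle, replicate 2 just above it and replicate 3 below it, and the combined libraries were lower than both groups. The log2FC of Etfdh was -1.78 ± 0.49 (SE; adjusted p = 0.0656) with the combination and -0.21 ± 0.49 (SE; adjusted p = 0.932) with fasudil by limma. Etfa and Etfb had log2FC of -1.32 and -1.03 with the combination.

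The transcription factors among the members showed small differences beside their spread. Ppara, which drives fatty acid oxidation genes in liver and brown fat, measured 20.4, 13.5, 14.7 and 24.2 with vehicle, 14.9, 12.8 and 8.75 with fasudil, 2.22 and 24.3 with BAPN and 21.4, 6.23 and 8.08 with BAPN and fasudil. BAPN replicate 3 was level with the highest vehicle library, combined replicate 1 was within the vehicle range, and the other combined libraries were below it. Its log2FC was -0.72 ± 0.62 (SE; adjusted p = 0.486) by limma. Pparg, the master regulator of adipocyte differentiation, measured 154, 101, 98.1 and 146 with vehicle, 114, 123 and 80.4 with fasudil, 32.3 and 119 with BAPN and 96.2, 53.3 and 58.9 with BAPN and fasudil. The combined libraries were below vehicle, the first of them by a narrow margin. The log2FC of Pparg was -0.85 ± 0.40 (SE; adjusted p = 0.204) by limma.

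BAPN alone gave log2FC below 0 for 31 of the 32 genes, with a median of -1.61 beside 0.02 over all genes, and limma called 0 of them (0% of all genes were called). An unadjusted p under 0.05 with a lower level was found for 26 of the 32, against 13.4% of all genes. The lowest values were for Fabp3, -3.05 ± 0.68 (SE; adjusted p = 0.0847), Cpt1b, -2.18 ± 0.63 (SE; adjusted p = 0.109), Etfdh, -2.07 ± 0.55 (SE; adjusted p = 0.0996), and Hadhb, -2.03 ± 0.52 (SE; adjusted p = 0.095). Both BAPN libraries were below every vehicle library for 25 of the 32, against 17.6% of all genes. The 2 libraries were far apart: the level in BAPN replicate 3 was 3.46 times that in BAPN replicate 1 at the median, from 0.455 times for Cpt1a to 11.0 times for Ppara. BAPN replicate 1 was the lowest of the 12 libraries for 28 of the 32 genes. Its median position was -2.55 from the vehicle mean on the log2 scale, and that of BAPN replicate 3 was -0.63. Without BAPN replicate 3, limma called 29 of the 32 lower, beside 10.3% of all genes, and without BAPN replicate 1 it called 0. Each of these fits has 1 BAPN library, which is assumed to vary like the libraries of the other groups. The values of BAPN replicate 2 that follow from the authors' deposited group mean lay between those of the other BAPN libraries for 29 of the 32 genes, at a median of -1.47, and 23 genes were called lower with them in the fit, beside 5.62% of all genes.

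Fasudil alone gave a median log2FC of -0.43 beside -0.02 over all genes, below 0 for 29 of the 32, and limma called 0 (0% of all genes). The 1 member with an unadjusted p under 0.05 was Acsl5, -1.01 ± 0.41 (SE; adjusted p = 0.603) by limma, against 7.99% of all genes in either direction. Hadhb, Acaa2, Echs1, Decr1, Acadl, Hadh, Etfb and Eci1 had every fasudil library below every vehicle library, 8 of the 32 against 6.19% of all genes. Fasudil replicate 3 was the lowest of its group for 31 genes and below every vehicle library for 29. The medians of the fasudil libraries were -0.19, -0.19 and -0.88 from the vehicle mean. Cd36, Slc27a1 and Acot2 had log2FC above 0 (0.14, 0.14 and 0.17).

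Adding fasudil to BAPN was tested by setting the combined group against BAPN alone. Limma called 0 of the 32 genes (0.00727% of all genes, 1 gene), and the unadjusted count was 0 as well (3.36% of all genes). The median log2FC was 0.16, and no gene of the 32 had all combined libraries below both BAPN libraries (3.19% of all genes) or above them (8.57%). For 27 of the 32 genes BAPN replicate 3 was above all combined libraries, and for 28 BAPN replicate 1 was below them all. The median was -0.71 without BAPN replicate 1 and 1.12 without BAPN replicate 3, so its direction followed the library kept. The 95% confidence intervals were wide, from -0.73 to 2.45 for Fabp3 and from -1.22 to 0.87 for Cpt2, and do not show that the groups are alike.

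Against fasudil alone, the combined group had a median log2FC of -0.94 beside 0.03 over all genes, and 31 of the 32 were below 0. Limma called 0 of the 32 (0.0218% of all genes). An unadjusted p under 0.05 with a lower level was found for 14, against 9.14% of all genes, and 20 had all combined libraries below all fasudil libraries, against 11.6%. Cpt2 had the smallest adjusted p, with -1.47 ± 0.42 (SE; adjusted p = 0.166), and Fabp3 the lowest log2FC, with -1.81 ± 0.64 (SE; adjusted p = 0.196). The fasudil effect with BAPN minus that without it, the interaction, had a median of 0.60 beside 0.07 over all genes, and limma called 0 of the 32 (0.00727% of all genes, and 0 of the 32 at an unadjusted p under 0.05 against 5.27%). Values ran from -0.26 ± 0.46 (SE; adjusted p = 0.95) for Slc27a1 to 1.24 ± 0.93 (SE; adjusted p = 0.86) for Fabp3. The combined group drank BAPN alone for 1 week first, and no such delay is stated for fasudil alone. A difference in time on fasudil cannot be told apart from the other effects in the contrast with fasudil or in the interaction. The 3 comparisons with vehicle share the vehicle libraries, so their values are given side by side and no overlap between them is read.

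The balance between paired enzymes was looked at in 7 ratios, chosen after the values had been seen, each in 5 comparisons by a two-sided exact permutation test of the log2 ratio. None of the 35 tests could have passed Benjamini-Hochberg adjustment, since with every test at its smallest possible p the lowest adjusted p would be 0.0715, so the ratios are given as descriptions. The smallest adjusted p found was 0.318. The ratio of Cpt1b to Cpt1a was 21.0 to 68.3 in the 4 vehicle libraries and 10.8 to 46.8 with fasudil. It was 1.86 and 27.5 in the 2 BAPN libraries and 8.09 to 13.6 in the 3 combined libraries, which all lay below vehicle (exact p = 0.0571 against vehicle, where 0.0286 is the smallest possible). Cpt1b thus made up 95.4% to 98.6% of the summed FPKM of the 2 forms with vehicle and 89.0% to 93.2% with the combination. Fabp3 relative to Fabp4 was 0.0465 to 0.0589 with vehicle and 0.0129 to 0.0398 with the combination (exact p = 0.0286, the smallest possible). It was 0.0153 and 0.0183 with BAPN and 0.0189 to 0.0665 with fasudil, where replicate 3, the lowest, lay within the combined range.

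Hadha relative to Hadhb, the pair that starts head to head, was 0.617 to 0.726 with vehicle and 0.853 to 0.977 with fasudil (exact p = 0.0286, the smallest possible). In the combined libraries it was 0.747 to 0.805, above vehicle and below fasudil, and in the BAPN libraries 0.601 and 0.846. Acadm relative to Acadl was 1.03 to 1.14 with vehicle, 1.29 to 1.46 with fasudil (exact p = 0.0286, the smallest possible) and 0.858 to 1.14 with the combination. The ratios Etfa to Etfb, Acsl1 to Acsl5 and Lpl to Cd36 had exact p-values from 0.0857 to 1.

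Other genes of the pathway were described through a list of 62, of which 59 were tested. With the combination 9 fell and none rose, beside 1.02% of all genes lower, and the median log2FC was -0.96. Ucp3, a mitochondrial carrier related to the uncoupling protein of brown fat, had -2.94 ± 0.46 (SE; adjusted p = 0.0308) by limma. It measured 65.7, 47.0, 55.6 and 86.5 with vehicle, 40.7, 49.9 and 36.2 with fasudil, 2.67 and 12.1 with BAPN and 5.77, 4.18 and 14.7 with BAPN and fasudil. Peroxisomal enzymes were among those that fell: Acaa1b, a thiolase, with -2.53 ± 0.38 (SE; adjusted p = 0.0299), Ehhadh, the bifunctional enzyme, with -2.32 ± 0.32 (SE; adjusted p = 0.0237), Decr2, the peroxisomal counterpart of Decr1, with -1.06 ± 0.21 (SE; adjusted p = 0.0434), and Acot8, a thioesterase, with -0.73 ± 0.11 (SE; adjusted p = 0.0299), all by limma. Acad11 had -1.53, Dbi, the acyl-CoA binding protein, -1.44, Acsf2 -1.19 and Acsl3, a synthetase, -0.96. In these 9 genes the combined libraries were all below vehicle, as in 16.6% of all genes. A choice by the test on the same libraries favours such a separation. None of the list was called with BAPN, with fasudil, or in the other 3 comparisons.

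Brown adipocyte markers and mitochondrial genes mostly moved with the members across libraries. Transcripts of the mitochondrial genome made up 43.6% to 53.3% of the FPKM with vehicle, where replicates 1 and 4 were the highest, and 40.9% to 51.1% with fasudil. They made up 23.7% and 42.8% in BAPN replicates 1 and 3 and 31.3% to 40.5% with the combination. None of the 32 is in the lists of markers used here. Of 15 brown adipocyte markers 14 were tested, 3 fell with the combination (Elovl3, Otop1 and Adrb3) and none rose, with a median log2FC of -1.44. The log2FC was above 0 for 1 of the 14, at 0.79, with an unadjusted p under 0.05 by limma. At that threshold 10 of the 14 were lower, against 14.4% of all genes. Their summed level was 6886 to 11684 with vehicle, 4164 to 8356 with fasudil, 704 to 3529 with BAPN and 2034 to 2597 with the combination, and Zic1 was at or near 0 in every library. Ucp1, the uncoupling protein that defines brown fat, measured 4208, 3099.7, 2246 and 4293 with vehicle, 3475, 4933 and 1349.6 with fasudil, 21.2 and 449 with BAPN and 516, 444 and 524 with BAPN and fasudil. Cidea, another brown fat gene, measured 1534, 1075, 1212 and 1790.3 with vehicle, 702, 713 and 691 with fasudil, 168 and 879 with BAPN and 562, 451 and 515 with BAPN and fasudil. Thus the libraries low in the members, BAPN replicate 1 above all, were those low in brown adipocyte markers. The 27 tested subunits of the respiratory chain that the nucleus encodes had a median log2FC of -1.24 with the combination, with 0 called. By limma all 27 were lower at an unadjusted p under 0.05, beside 26 of the 32 members and 14.4% of all genes.

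The white and general adipocyte list had a median nearer to 0 and followed the members less closely. In BAPN replicate 3 its median position was 0.11, where that of the members was -0.63. Of its 15 genes 14 were tested, Lep rose with the combination, none fell, and the median log2FC was -0.60. Its summed level was 10879 to 16873 with vehicle, 12913 to 16123 with fasudil, 6292 to 14051 with BAPN and 6339.7 to 10023 with the combination. Adipoq, the adiponectin gene, measured 588, 544, 643 and 881 with vehicle, 818, 825 and 601 with fasudil, 297 and 704 with BAPN and 671, 348 and 507 with BAPN and fasudil. Plin1, which coats lipid droplets, measured 454, 378, 377 and 529 with vehicle, 509, 474 and 340.3 with fasudil, 117 and 359 with BAPN and 219, 133 and 251 with BAPN and fasudil. Relative to Adipoq, the sum of the members without Fabp4 was 16.2 to 25.7 with vehicle, 10.8 to 13.5 with fasudil, 7.07 and 11.1 with BAPN and 6.86 to 11.8 with the combination, and none of the treated libraries reached vehicle. Relative to Plin1 it was 27.6 to 33.3 with vehicle, 19.1 to 23.5 with fasudil, 18.01 and 21.7 with BAPN and 21.0 to 31.01 with the combination, where combined replicate 2 lay within vehicle. In bulk tissue, fewer cells of a type and less RNA per cell cannot be told apart. Macrophage markers moved the other way in the combined libraries, with 5 of 10 called higher (Csf1r, C1qb, C1qc, Mrc1 and Tyrobp) and summed levels of 119 to 164 with vehicle, 121 to 181 with fasudil, 301 and 612 with BAPN and 288 to 878 with the combination. Of 10 fibroblast markers Dpep1 rose and all 10 had a log2FC above 0. Their sums were 537 to 1041 with vehicle, 459 to 1152 with fasudil, 1348 and 2014 with BAPN and 1859 to 2182 with the combination. Of 5 tested red blood cell markers Hbb-bt rose and all 5 had a log2FC above 0, with sums of 3014 to 6765 with vehicle, 1720 to 9021 with fasudil, 4546 and 5038 with BAPN and 10804 to 22160 with the combination. No endothelial, contractile smooth muscle, cardiomyocyte, skeletal muscle, B and plasma cell, sympathetic nerve or airway epithelium marker was called with the combination. The part of any of these cell types in the members' values was not tested.

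**Figure D4:**
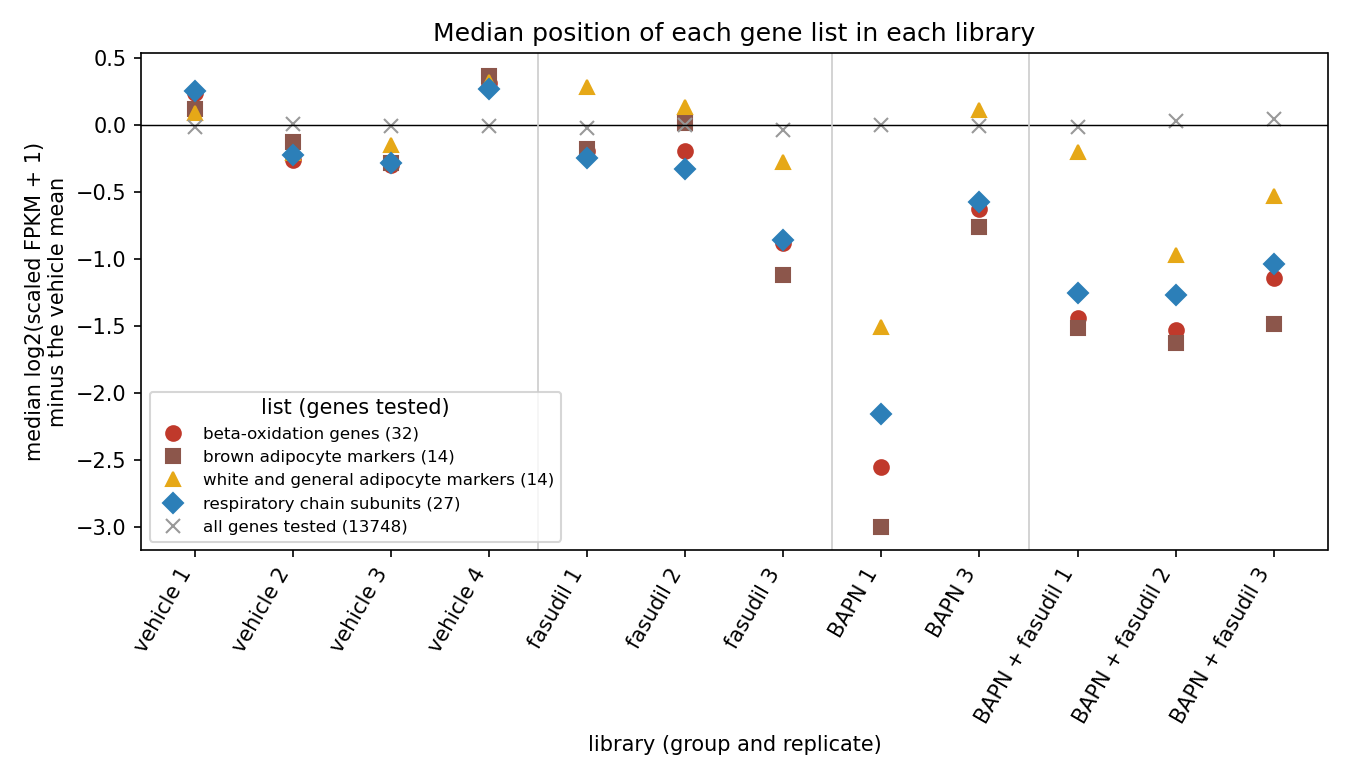
Median over each gene list of log2(scaled FPKM + 1) minus the vehicle mean, in each of the 12 libraries (points by list, number of genes tested in the legend). In the 3 combined libraries the beta-oxidation genes lie between -1.53 and -1.15, the brown adipocyte markers between -1.63 and -1.48, the respiratory chain subunits between -1.27 and -1.04 and the white and general adipocyte markers between -0.97 and -0.20. In BAPN replicate 1 these lists lie at -2.55, -3.01, -2.16 and -1.51, while in fasudil replicates 1 and 2 the white and general adipocyte markers lie above 0.

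**Figure D5:**
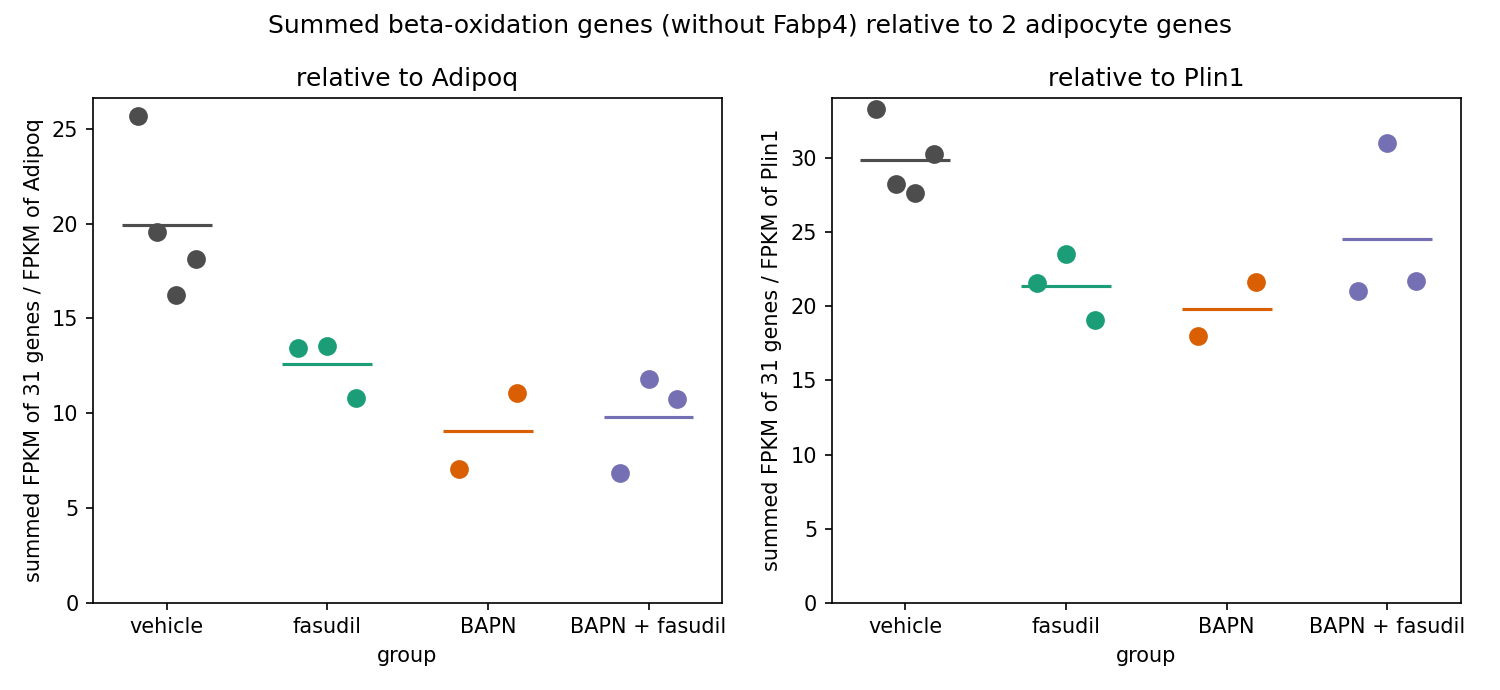
Summed scaled FPKM of the 31 members without Fabp4, divided by the FPKM of Adipoq (left) or Plin1 (right), in each library by group, with group means as lines and axes from 0. Relative to Adipoq the 4 vehicle libraries (16.2 to 25.7) lie above all 8 treated libraries, and relative to Plin1 combined replicate 2 (31.01) lies among them (27.6 to 33.3).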

How the data were processed

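Total RNA of mouse aorta was extracted with a TRIzol kit, per the labels' protocols. Bowtie2, RSEM and DESeq2 are listed, with no version, in the submitters' processing notes, as are the builds GRCm39 and mm10. The strand setting and the instrument are not settled by the sources used here. The deposited values are FPKM made by the authors, per the file headers, 1 column a library, so no count test was used. The BAPN replicate 2 column equals replicate 1 plus 1 FPKM in all 28510 genes and was left out. Values recovered from the authors' deposited BAPN mean served as an alternative.

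FPKM were scaled by a trimmed mean of log ratios (30% of ratios and 5% of levels trimmed at each end), filtered at 1 FPKM in 2 libraries, and tested as log2(scaled FPKM + 1) with limma 3.58.1 (R 4.3.3; trend, robust), all 4 groups in 1 fit, with Benjamini-Hochberg adjustment over 13748 genes. Fold changes of low genes are understated by the pseudocount. Depth was estimated from the steps between FPKM values of transcripts of 300 to 900 bases, less 49 bases, where 53.1% to 58.2% of values fell within 0.1 of whole reads, so no reads were recovered. The fit was tested on simulated data. Every library was left out in turn, and scaling, filter, pseudocount, weights, replicate block and samples were varied. Members, lists and named genes were chosen with earlier results of these data known. Library values are given for 20 members set by symbol and any other that was called, the rest as ranges.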

Additional observations from a re-analysis of the deposited data

Results flagged for a closer look

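Lpl in the vehicle group was flagged because 1 library stood far from the other 3. Vehicle replicate 4 had 1129.7 scaled FPKM and the others 606, 663 and 680.3. The gap from replicate 4 to its nearest neighbour was 0.858 of the group's whole range, and chance alone flags about 1 in 20 groups of 4. The 31 other members were not flagged in the vehicle group. Replicate 4 also had the highest vehicle value for Adipoq, at 881 scaled FPKM, and for Plin1, at 529. Their part in the Lpl value was not tested.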

How the results depend on the processing

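With the combination against vehicle, the members called lower numbered 3 in the fit reported (1.02% of all genes tested were called lower), 9 without scaling (1.66%), 0 without the filter on low values (0.0267%), 11 with the filter at 5 FPKM (5.29%), 31 with library quality weights (18.2%) and 25 with only the 2 groups in the fit (8.85%). They numbered 13 with the recovered BAPN replicate 2 added (4.56%) and 24 with it in place of BAPN replicate 1 (9.27%), the latter chosen after seeing the data. The share of all genes called thus rose with most of these counts. Leaving out 1 library gave 0 to 24, and the median log2FC stayed between -1.53 and -1.30. For BAPN against vehicle the count of 0 became 23 with the recovered library (5.62% of all genes) and 0 to 29 with 1 library left out. Against fasudil, the combination gave 22 with quality weights (13.9%) and 0 to 1 with 1 library left out. The count of 1 came without fasudil replicate 3, where 0.384% of all genes were called lower. Fasudil against vehicle gave 0 throughout, with at most 0.386% of all genes called lower. Outside the fits with 1 library left out, the interaction gave 0 (at most 0.0343% of all genes lower). The combination against BAPN gave 0 there too (at most 0.0496%). With 1 library left out the median log2FC of the interaction ran from -0.27 to 1.52. No scaling moved the median of all genes to 0.35 and that of the members to -1.03. Other pseudocounts, median-ratio scaling and a geometric mean reference left every count within 1.5 times. The causes of these moves were not tested.

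With the replicate number as a block, the count against vehicle was 0 (0% of all genes). Same-numbered libraries correlated from -0.49 to 0.21, over 0.1 in 3 of 15 pairs, so the numbers were not taken as pairing. Limits are the 2 to 4 libraries a group, BAPN replicate 1, and depth known only as an estimate.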
